A study of Mus musculus with 4 samples.

Results

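The kinesins are the motor proteins that walk along microtubules or take them apart. They were followed here in hair follicle stem cells sorted from mouse skin epidermis, by RNA sequencing. Members were all rows of the count table whose symbol begins with Kif followed by a digit or by the letter c, which gave 42 of 24084 gene rows. The 12 mitotic kinesins (Kif2c, Kif4, Kif11, Kif14, Kif15, Kif18a, Kif18b, Kif20a, Kif20b, Kif22, Kif23 and Kifc1) were set against the 30 other rows as a control inside the same family. A filter on low counts left all 12 mitotic kinesins and 23 of the other 30 to be tested, among 12920 genes. Both groups were C57BL/6 mice aged 7 to 10 weeks, given diphtheria toxin at 15 ng/g into the peritoneum and sampled 4 days after depilation. The WT group (2 libraries, A and C) kept its regulatory T cells. The Foxp3-DTR group (2 libraries, C and D) makes the toxin's receptor in cells that express Foxp3, the transcription factor of regulatory T cells, and these cells are lost on toxin. Depilation sends follicles into growth (anagen), and the comparison asks how the stem cells' transcripts differ when these T cells are missing. The number of animals behind a library is not given in the sources used here.

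A kinesin couples ATP hydrolysis in its motor domain to force on a microtubule. Transport kinesins carry vesicles, organelles and protein complexes through the cell at all times, mostly outward from the cell centre. Mitotic kinesins build the spindle, move and align chromosomes and complete the cut between daughter cells, and their transcripts are known to accumulate in G2 and mitosis. In resting bulge stem cells few cells divide, and in early anagen the cells of the bulge and hair germ re-enter the cycle.

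Gene counts per library ranged from 13911765 to 15923154. Levels are CPM, scaled counts that allow libraries of different depth to be compared, and sets of 4 values follow the order WT A, WT C, Foxp3-DTR C, Foxp3-DTR D; 3 counts, the most that a count of 0 allows, come to between 0.184 and 0.212 CPM by library. All 10 listed stem cell markers, among them Cd34, Krt15, Lgr5 and Sox9, were detected, and together they ranged from 27390 to 34080 CPM. Krt5, Krt15 and Krt14 made up most of this sum, at WT means of 14940, 10810 and 3730 CPM. Of the 10, 7 had negative and 3 positive log2 fold changes (Foxp3-DTR against WT). In edgeR's test 0 passed, against 0.426% of all genes called lower and 0.82% higher. Lhx2 stood at -0.88, Itga6 at 0.70 and Cd34 at 0.63. DESeq2, an alternative test, called Lhx2 lower and Itga6 and Cd34 higher (DESeq2 adjusted p = 3.03e-05, 0.00934 and 0.0284). Over all genes, DESeq2 called 3.79% lower and 3.61% higher. Foxp3 had 0 counts in all 4 libraries, so it does not check the depletion. The Y chromosome genes Kdm5d, Uty, Ddx3y and Eif2s3y, 4 in all, summed to 0 counts in both WT libraries and to 319 and 259 CPM in Foxp3-DTR C and D. Xist stood at 860 and 2481 CPM in WT A and C and at 1.86 and 0 CPM in Foxp3-DTR C and D. Genotype therefore cannot be told apart from sex, nor from the title codes DEP2 (WT) and DEP3 (Foxp3-DTR). This touches Kif4 most directly, since it lies on the X chromosome.

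Every mitotic kinesin was lower in both Foxp3-DTR libraries than in either WT library, as were 23.7% of all genes tested. The other kinesins had fold changes of both signs around a median near 0. Kif11 alone passed the test across all genes. The mitotic members summed to 617 and 391 CPM in WT libraries A and C, and to 84.6 and 164 CPM in Foxp3-DTR libraries C and D. Over the same libraries the other 30 rows summed to 1340, 1575, 1583 and 1506 CPM. The mitotic members thus made up 31.5% and 19.9% of kinesin counts in WT A and C, and 5.08% and 9.81% in Foxp3-DTR C and D. In bulk samples, fewer dividing cells and less RNA of these genes per cell cannot be told apart.

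**Figure D1:**
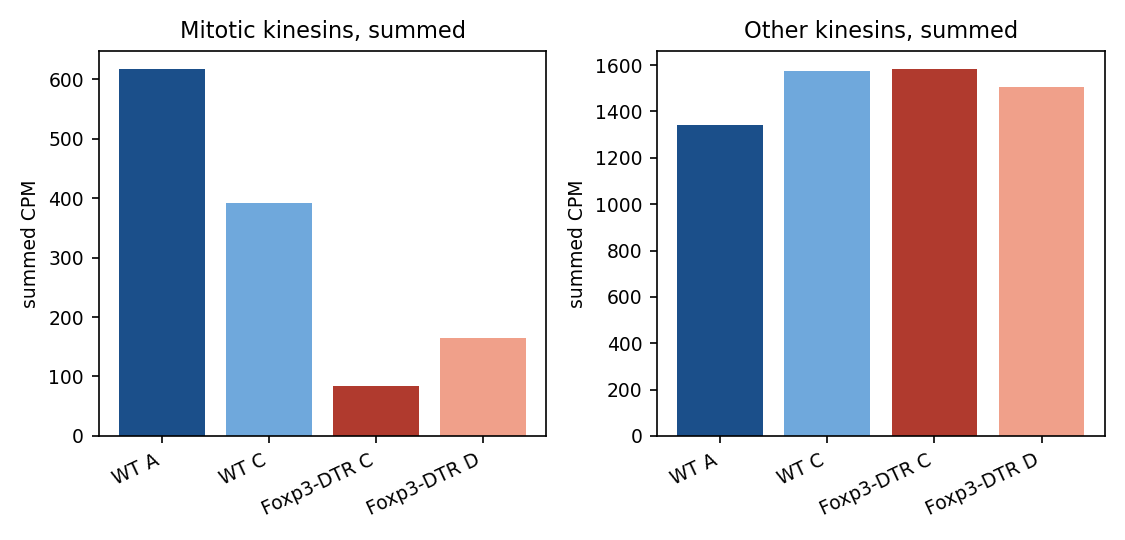
Summed CPM of the 12 mitotic kinesins (left) and of the 30 other kinesin rows (right), 1 bar per library, both axes starting at 0. The mitotic bars reach 617 and 391 CPM in WT and 84.6 and 164 CPM in Foxp3-DTR, while the other kinesins stay between 1340 and 1583 CPM.

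The motors that push and order the spindle microtubules come first. Kif11 (mm10 chromosome 19, 37376403 to 37421859), the kinesin-5 motor that slides antiparallel microtubules to separate the spindle poles, stood at 106 and 77.9 CPM in the WT libraries and at 14.3 and 23.1 CPM in the Foxp3-DTR libraries. Both Foxp3-DTR libraries were far below both WT libraries. It fell by 2.30 on the log2 scale (SE 0.30), with an adjusted p of 0.0322 in edgeR's quasi-likelihood test. Kif15, a kinesin-12 motor that helps to hold the poles apart, stood at 49.7, 34.6, 6.43 and 12.7 CPM. This gave -2.14 ± 0.39 (SE) as log2 fold change and 0.0604 as edgeR adjusted p. The groups kept well apart for Kif15 too, but it did not pass. Kifc1, a kinesin-14 that moves toward minus ends and gathers the poles, stood at 29.0, 14.7, 2.06 and 7.86 CPM (log2 fold change -2.14 ± 0.70, adjusted p = 0.236 in edgeR's test). Foxp3-DTR D was 3.83 times Foxp3-DTR C, the widest gap between replicates of that group among the 12.

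The reads of Kifc1 are uncertain. Of its transcript's 50-base stretches, 45.8% are found identically in Kifc5b, a near copy on the same chromosome 17, and alignments that were not unique are left out of the gene counts. Kifc5b stood at 3.66, 4.06, 0.862 and 3.26 CPM, and its log2 fold change of -0.91 ± 0.79 did not pass (edgeR adjusted p = 0.692). The 2 genes together came to 32.7, 18.8, 2.92 and 11.1 CPM.

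The motors that act on chromosomes and on microtubule ends gave the widest range of fold changes. Kif2c, a kinesin-13 that takes microtubules apart at centromeres, stood at 32.9, 14.7, 3.58 and 6.66 CPM (log2 fold change -2.21 ± 0.52). Kif22, the chromokinesin that pushes chromosome arms outward, stood at 60.4, 27.8, 5.44 and 17.1 CPM (-1.97 ± 0.66). Kif18b, a kinesin-8 that trims astral microtubules, stood at 33.1, 13.2, 5.04 and 7.29 CPM (-1.91 ± 0.50). All 3 were high in WT A, intermediate in WT C and low in Foxp3-DTR, without passing (edgeR adjusted p = 0.0989, 0.261 and 0.133). Kif18a (chromosome 2, 109280738 to 109341747), the kinesin-8 that damps chromosome movements at the metaphase plate, behaved differently in size. It stood at 31.2 and 33.5 CPM in WT A and C and at 20.2 and 21.5 CPM in Foxp3-DTR C and D. The groups did not overlap, yet the estimate was only -0.63 ± 0.23 on the log2 scale (95% interval -1.18 to -0.08), and it did not pass (edgeR adjusted p = 0.265). The next smallest estimate among the 12 was -1.89, in Kif23. Kif18a therefore took up 5.05% and 8.57% of the mitotic kinesin counts in WT A and C, and 23.8% and 13.1% in Foxp3-DTR C and D.

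The motors of the central spindle and of cytokinesis included the most negative estimate. Kif20a, which brings the chromosomal passenger complex to the midzone, stood at 80.6 and 53.1 CPM in WT and at 7.03 and 14.7 CPM in Foxp3-DTR. At -2.62 ± 0.42 on the log2 scale it had the most negative estimate of the 12 and narrowly missed the threshold (edgeR adjusted p = 0.051). Kif20b, a relative that acts in the final cut, stood at 49.0, 36.3, 4.91 and 11.3 CPM (-2.40 ± 0.44, edgeR adjusted p = 0.0603). For both genes the lowest WT library was more than 3 times the highest Foxp3-DTR library. Kif23, the motor subunit of centralspindlin, stood at 77.7, 47.3, 8.82 and 24.9 CPM (-1.89 ± 0.54, edgeR adjusted p = 0.193). Kif4, a chromokinesin that sets the length of midzone bundles, stood at 43.0, 23.7, 4.57 and 9.77 CPM (-2.22 ± 0.48, edgeR adjusted p = 0.0854). Kif14, which recruits citron kinase to the midbody, stood at 24.8, 14.3, 2.32 and 7.08 CPM (-2.06 ± 0.59, edgeR adjusted p = 0.168). All 5 motors of this set were lower in both Foxp3-DTR libraries than in either WT library, as were 23.7% of all genes tested. In each of the 5, Foxp3-DTR C was the lowest library.

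Some exons of Kif20a and Kif4 lie opposite exons of another gene, and the strand setting of the counting is not given in the sources used here. The overlap covers 1271 bases with Cdc23 for Kif20a and 753 bases with Pdzd11 for Kif4. The log2 fold changes of these neighbours were -0.18 ± 0.17 and -0.32 ± 0.24 (edgeR adjusted p = 0.729 and 0.634).

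**Figure D2:**
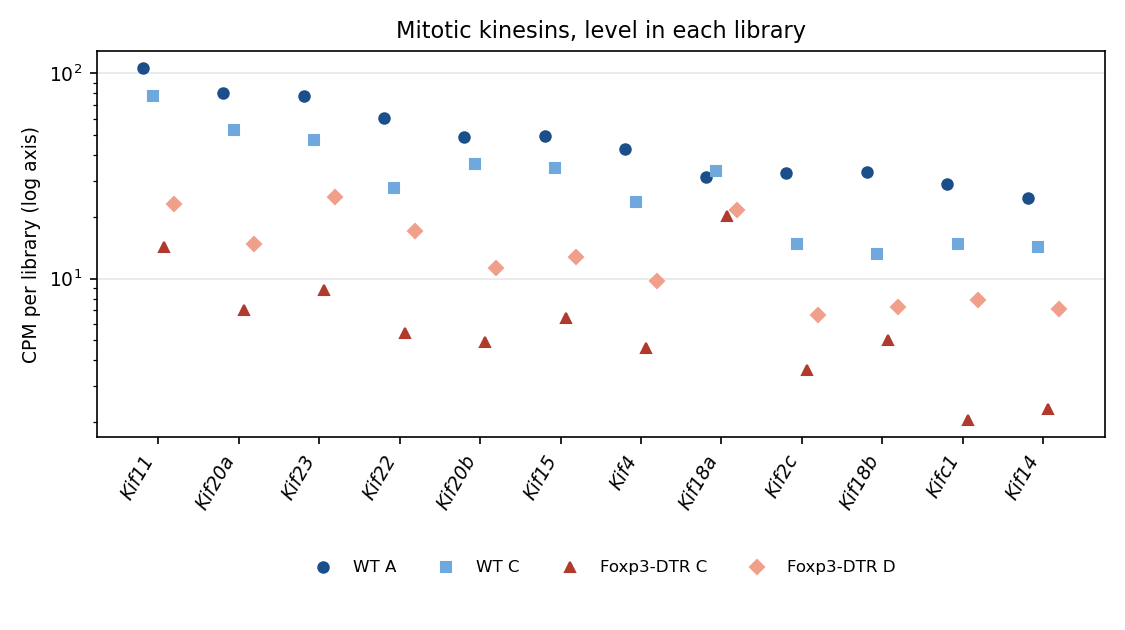
CPM of each mitotic kinesin (log axis), 1 symbol per library, genes ordered by their WT mean. For every gene both red symbols (Foxp3-DTR) lie under both blue symbols (WT); the gap is narrowest for Kif18a, at 20.2 and 21.5 CPM against 31.2 and 33.5 CPM.

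Across all genes, 0.426% were called lower and 0.82% higher in Foxp3-DTR by edgeR at an adjusted p under 0.05, against 1 of 12 mitotic kinesins lower and 0 higher. The median log2 fold change of the 12 was -2.14, beside -0.01 over all genes tested. Groups did not overlap, with Foxp3-DTR lower, for 12 of 12 mitotic kinesins and for 23.7% of all genes tested. A log2 fold change of -1 or below was seen in 11 of 12, all but Kif18a, and in 7.47% of all genes. At an unadjusted p under 0.05, edgeR had 12 of 12 lower and 7.89% of all genes. DESeq2 called 11 of 12 lower, again all but Kif18a (DESeq2 adjusted p = 0.269), and 3.79% of all genes. With no filter edgeR called 6 of 12 lower (1.61% of all genes), and limma-voom and upper-quartile factors left 1 each, Kif11 (0.178% and 0.402%). The count also depended on single libraries. Without Foxp3-DTR D 10 of 12 passed (1.64% of all genes), without WT C 3 (1.2%), without Foxp3-DTR C 2 (0.105%) and without WT A 1 (0.316%), at medians of -2.83, -2.46, -1.70 and -1.57.

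The replicates of each group differed in step across the mitotic kinesins. WT A was above WT C for 11 of 12, with a median ratio of 1.69 and a highest ratio of 2.51 (Kif18b). Foxp3-DTR D was above Foxp3-DTR C for 12 of 12, with a median ratio of 2.12. Kif18a was again apart, at 0.93 and 1.07. For the 23 other tested kinesins the same median ratios were 0.861 and 0.948. Alignments that were not unique made up 61.34%, 51.81%, 53.45% and 58.27% of a library's counts, so WT A and Foxp3-DTR D were the higher library of their groups. Suprabasal keratinocyte markers, of which 7 of 8 listed genes are in the table and none was at 0, stood apart in the same libraries: they summed to 8270, 987, 1204 and 7030 CPM, so that WT A and Foxp3-DTR D were high. Sebaceous gland markers summed to 1984 CPM in WT A and to between 356 and 500.1 CPM in the other libraries; all 6 had negative log2 fold changes (median -1.51), and the groups overlapped for each. Hair germ and matrix markers summed to 320.4, 396, 492 and 428 CPM, with 7 of 8 tested (Shh had at most 3 counts in any library) and 5 of 7 positive. Lef1 stood at 1.47, Krt27 at 3.25, Krt71 at 1.10, Cdh3 at 0.44 and Msx2 at 0.04 on the log2 scale. Hoxc13 and Dlx3 were negative, at -0.51 and -0.65. In this list the groups did not overlap for 4 genes with Foxp3-DTR higher and for 2 with it lower. The shares over all genes tested were 22.0% and 23.7%. Melanocyte markers summed to 33.0, 18.8, 33.9 and 44.7 CPM, with 5 of 6 tested and all 5 positive (median 1.5). For 4 of them Foxp3-DTR was higher without overlap between groups, beside 22.0% of all genes tested. Tyr had only 8, 0, 18 and 18 counts and Sox10 only 12, 12, 44 and 26. No gene of these 4 lists passed edgeR's test or was at 0 in every library. DESeq2 called Krt27, Krt71 and Lef1 higher (DESeq2 adjusted p = 0.00156, 0.0265 and 0.0334), as it did 3.61% of all genes. The part of these 4 lists, and of alignments that were not unique, in the differences between replicates and between groups was not tested.

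**Figure D3:**
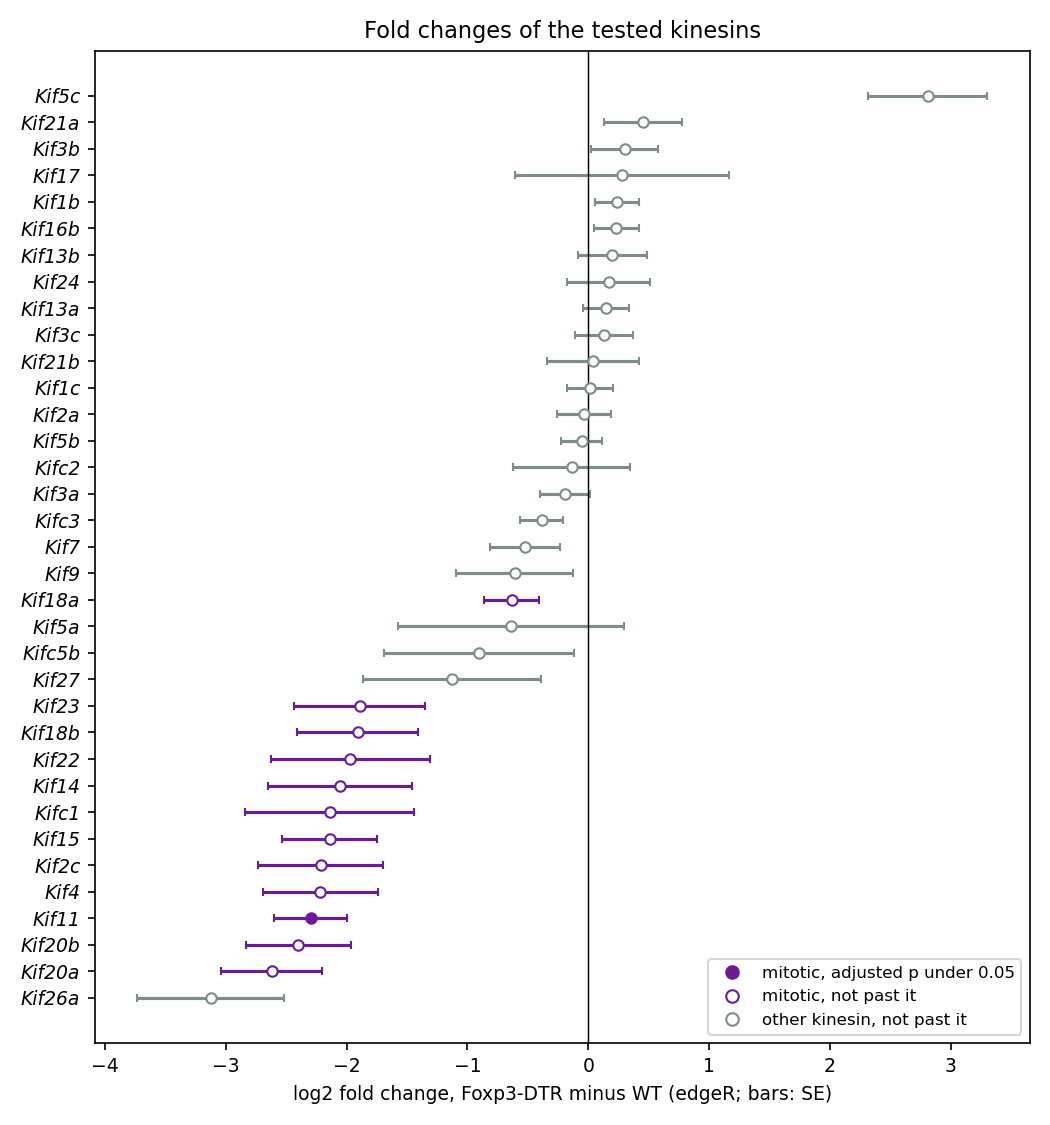
Log2 fold change of Foxp3-DTR against WT for the 35 tested kinesins, with bars for the SE. Filled symbols passed an edgeR adjusted p under 0.05, which only Kif11 did; 11 of 12 mitotic kinesins (purple) lie between -2.62 and -1.89, with Kif18a at -0.63, and most other kinesins (grey) lie near 0 apart from Kif26a and Kif5c.

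Because the mitotic members were low together, their promoters were searched for letters known from genes of the G2 and M phases. The cell cycle homology region, TTTGAA or TTCGAA, is bound by the MuvB complex, which keeps such genes silent in resting cells and activates them in dividing ones, and CCAAT boxes, CCAAT, often lie just upstream. For E2F factors, which act at entry into S phase, the letters searched were TTTNGCG with G or C at the fourth place, TTTCCCG, and TTTGCCG. Both strands were searched in RefSeq promoters of GRCm38.p6, from 250 bases before to 50 after the start site, and no matches of different motifs shared bases in the 52 matches found in kinesins. A promoter was matched for 11 of the 12 mitotic kinesins (not Kif20a) and for 22 of the other 30. A cell cycle homology match was present in 10 of these 11 mitotic promoters, against 13.4% of the promoters of all genes tested and 19.2% of all RefSeq promoters. The 11th was Kif18a, the member with the smallest estimate. Among the other kinesins 5 of 22 genes had such a match: Kif1a, Kif24, Kif26b, Kif27 and Kifc5b.

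Promoter stretches of a few genes, chosen by their fold changes, are printed as examples. The genes are Kif11, which fell, Kif18a, with the smallest estimate of the mitotic kinesins, and the transport motor Kif5c, higher in both Foxp3-DTR libraries. Each is the 150 bases before the start site, read 5′ to 3′ on the gene's strand, with motif matches in capitals. Kif11 (chr19:37376232-37376381, plus strand) carries a CCAAT box in reverse, ATTGG, and a cell cycle homology region in reverse, TTCAAA. Kif18a (chr2:109280588-109280737, plus strand) carries only an E2F match in reverse, CGCCAAA. Kif5c (chr2:49619136-49619285, plus strand) has no match. Examples chosen in this way cannot show whether motifs go with fold changes, which was not tested. Kif26a, at -3.12 the most negative of all tested kinesins, had no match in its promoter. Kif24, at 0.17, had a cell cycle homology match and CCAAT boxes.
Kif11: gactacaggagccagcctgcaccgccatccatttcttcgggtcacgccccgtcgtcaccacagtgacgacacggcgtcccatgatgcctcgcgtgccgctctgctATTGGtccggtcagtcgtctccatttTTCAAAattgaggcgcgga
Kif18a: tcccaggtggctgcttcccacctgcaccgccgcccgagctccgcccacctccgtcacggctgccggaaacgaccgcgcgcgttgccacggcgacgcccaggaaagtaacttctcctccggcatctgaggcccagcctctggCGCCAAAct
Kif5c: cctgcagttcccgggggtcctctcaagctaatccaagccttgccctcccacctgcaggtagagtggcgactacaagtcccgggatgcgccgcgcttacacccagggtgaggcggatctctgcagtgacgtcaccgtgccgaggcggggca

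In 8 of the 10 mitotic promoters with a cell cycle homology match, the match nearest the start site began within 30 bases of it. The exceptions were Kif2c, at -103, and Kif14, at -228. These distances depend on the gene model, since start sites are those of RefSeq. The first 30 bases after the RefSeq start site were not found in a GENCODE transcript for Kif2c, Kif11, Kif20b and Kif23, nor for Kif5c. GENCODE begins Kif2c (chromosome 4, 117182639, minus strand), Kif4 (chromosome X, 100625737) and Kif14 (chromosome 1, 136466343) further upstream. Kif15, Kif22 and Kifc1 also begin upstream in GENCODE, by fewer bases. The 30 bases around the match nearest the start site are printed for each of the 10 so that their flanks can be compared. Capitals mark cell cycle homology matches, TTTGAA or its reverse TTCAAA.
Kif11 (chr19:37376351-37376380, plus strand): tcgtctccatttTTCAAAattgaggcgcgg
Kif15 (chr9:122951050-122951079, plus strand): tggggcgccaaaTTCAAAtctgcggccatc
Kif22 (chr7:127042420-127042449, minus strand): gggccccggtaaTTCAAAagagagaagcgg
Kifc1 (chr17:33890615-33890644, minus strand): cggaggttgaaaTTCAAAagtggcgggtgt
Kif2c (chr4:117178858-117178887, minus strand): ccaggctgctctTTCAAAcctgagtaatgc
Kif23 (chr9:61946780-61946809, minus strand): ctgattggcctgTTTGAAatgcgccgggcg
Kif18b (chr11:102925104-102925133, minus strand): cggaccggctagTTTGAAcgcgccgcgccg
Kif20b (chr19:34922353-34922382, plus strand): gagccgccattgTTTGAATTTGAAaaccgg
Kif4 (chrX:100626072-100626101, plus strand): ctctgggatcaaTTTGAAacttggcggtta
Kif14 (chr1:136467608-136467637, plus strand): ggaggtcctgtcTTTGAAgtctgcagtgtc
CCAAT boxes were found in 7 of 11 mitotic promoters and in 37.6% of the promoters of all genes tested. A promoter with both motifs was found for 7 of 11 mitotic kinesins (Kif4, Kif11, Kif14, Kif18b, Kif22, Kif23 and Kifc1) and for 5.59% of the promoters of all genes tested. The E2F letters were found in Kif15 and Kif18a, and in 10.8% of those promoters. Outside the mitotic set both motifs were found for Kif24, Kif26b, Kif27 and Kifc5b. Kif24, a kinesin of centrioles, stood at 13.4, 11.4, 16.8 and 11.1 CPM, with a log2 fold change of 0.17 ± 0.34 that did not pass (edgeR adjusted p = 0.889). The log2 fold changes of Kif27 and Kifc5b were -1.13 ± 0.74 and -0.91 ± 0.79, and neither passed. Both were lower in Foxp3-DTR without overlap between groups, as were 23.7% of all genes tested. Kif26b was not tested. A match is a description of letters and was not tested as a binding site.

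**Figure D4:**
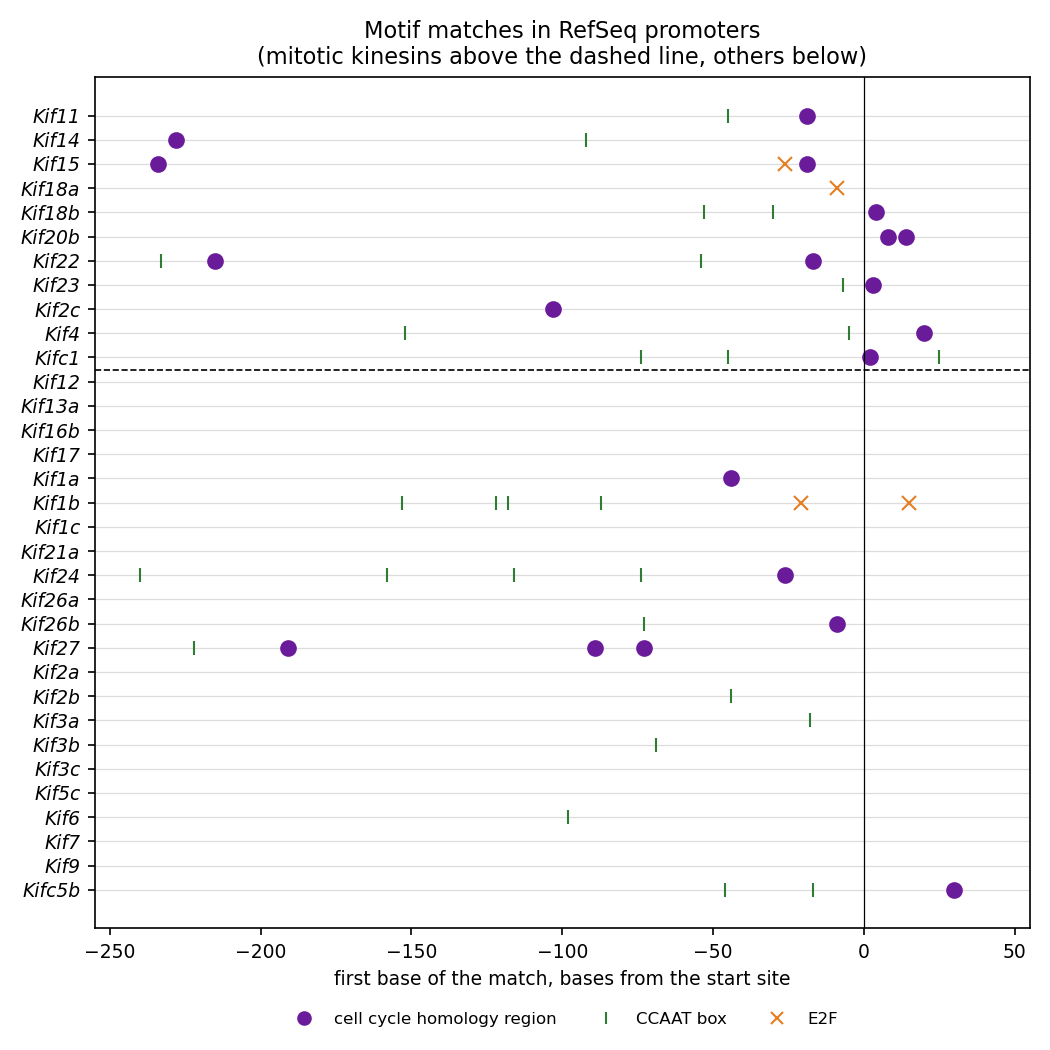
Position of motif matches in the RefSeq promoters of 33 kinesins, in bases from the start site; each symbol is the first base of a match, and genes with 2 promoter entries (Kif1a, Kif1b, Kif2a and Kif9) show both on 1 line. Purple circles (cell cycle homology region) appear in 10 of 11 mitotic kinesins, all but Kif18a, and in 5 of 22 other kinesins below the dashed line.

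The kinesin-1 heavy chains carry mitochondria, vesicles and mRNAs. Kif5b, the broadly expressed form, stood at 238 and 245 CPM in WT A and C and at 239 and 227 CPM in Foxp3-DTR C and D. The groups overlapped and the log2 fold change was -0.05, with a 95% interval of -0.46 to 0.36. Kif5c (chromosome 2, 49619298 to 49774778), known as a neuronal form, stood at 2.32 and 1.97 CPM in WT A and C and at 19.9 and 10.3 CPM in Foxp3-DTR C and D. Both Foxp3-DTR libraries were above both WT libraries. At a log2 fold change of 2.81 ± 0.49 it narrowly missed the threshold (edgeR adjusted p = 0.0544). DESeq2 called it higher (DESeq2 adjusted p = 2.97e-05), as it did 3.61% of all genes, and edgeR did so with no filter. Kif5c did not pass with limma-voom (limma-voom adjusted p = 0.108) or upper-quartile factors (edgeR adjusted p = 0.058). Leaving out 1 library gave log2 fold changes from 2.26 to 3.22. Kif5c took 0.962% and 0.787% of kinesin-1 counts in WT A and C and 7.64% and 4.31% in Foxp3-DTR C and D. The 6 neuron and nerve markers summed to 0 counts in both WT libraries and to 0.53 and 0.142 CPM in Foxp3-DTR C and D. Snap25 and Nefl were at 0 throughout. Which cells the Kif5c reads came from was not tested. Kif5a, the other neuronal form, stood at 0.704, 2.71, 1.13 and 1.06 CPM and did not pass (edgeR adjusted p = 0.835).

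The kinesin-2 and kinesin-3 motors did not pass either. Kif3a and Kif3b form the motor that drives transport inside cilia. Kif3a stood at 39.7, 46.8, 38.4 and 37.3 CPM, without overlap between groups, and Kif3b at 37.8, 63.0, 66.4 and 58.0 CPM, with WT A the low library. Their log2 fold changes were -0.19 (95% interval -0.69 to 0.30) and 0.30 (-0.36 to 0.96). Kif3c, at 23.4 to 30.03 CPM, and Kif17, at 0.928 to 2.69 CPM, overlapped between groups, as Kif3b did. Among kinesin-3 motors, which carry vesicles and endosomes, Kif1c stood at 331, 277, 291 and 323 CPM, overlapping between groups, with a log2 fold change of 0.02 (95% interval -0.44 to 0.47). Kif13a, a carrier of recycling endosomes, stood at 123, 155, 148 and 159 CPM (0.15, 95% interval -0.31 to 0.61). Kif1b, Kif13b and Kif16b had log2 fold changes between 0.20 and 0.24, and the groups did not overlap for Kif1b and Kif16b.

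Kinesin-4 motors outside mitosis shape microtubule ends in cilia and at the cell cortex. Kif21a, which restrains microtubule growth at the cortex, stood at 131 CPM in WT A and at 257, 268 and 263 CPM in WT C, Foxp3-DTR C and Foxp3-DTR D. WT A alone was low, and the log2 fold change of 0.45 ± 0.32 did not pass (edgeR adjusted p = 0.614). Kif21b stood at 36.4 and 37.0 CPM in WT A and Foxp3-DTR D and at 63.9 and 66.1 CPM in WT C and Foxp3-DTR C, so its replicates differed more than its groups. Kif7, which organises the ciliary tip in hedgehog signalling, stood at 27.5, 43.7, 26.2 and 23.4 CPM (log2 fold change -0.52 ± 0.29, edgeR adjusted p = 0.493). Kif27 had few reads, with 39, 36, 17 and 16 counts (log2 fold change -1.13 ± 0.74, edgeR adjusted p = 0.579).

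Kif26a (chromosome 12, 112146208 to 112181747), a kinesin-11 without motor activity that is known to restrain GDNF signalling through Grb2, had the most negative fold change of all tested kinesins. It had 170 and 201 counts in WT A and C and 11 and 29 counts in Foxp3-DTR C and D, or 11.96, 12.4, 0.729 and 2.05 CPM. The WT libraries were nearly equal and both Foxp3-DTR libraries were far below them. On the log2 scale this was -3.12 ± 0.61 and did not pass (edgeR adjusted p = 0.0691). DESeq2 called it lower (DESeq2 adjusted p = 8.16e-05), and so did edgeR with no filter. It did not pass with limma-voom (limma-voom adjusted p = 0.0842) or upper-quartile factors (edgeR adjusted p = 0.0707). Leaving out 1 library gave log2 fold changes from -4.04 to -2.56. Its promoter holds none of the motifs searched. Its relative Kif26b had 7, 7, 9 and 20 counts and was not tested.

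Other members that act on microtubule ends, in cilia or toward minus ends completed the control set. Kif2a, a depolymerising relative of Kif2c, stood at 48.0, 45.7, 52.6 and 38.9 CPM, with a log2 fold change of -0.03 (95% interval -0.57 to 0.50) against -2.21 in Kif2c. Kifc3, a minus-end motor at cell junctions, stood at 86.0 and 91.9 CPM in WT and 72.6 and 63.8 CPM in Foxp3-DTR (-0.38 ± 0.18, edgeR adjusted p = 0.406). Kifc2 stood at 6.76 and 15.98 CPM in WT and between those values in Foxp3-DTR. Kif9, a kinesin of motile cilia, stood at 8.80, 8.42, 3.78 and 7.51 CPM (-0.61 ± 0.49, edgeR adjusted p = 0.659). Of the 7 rows not tested, Kif2b, Kif12 and the pseudogene Kif4-ps had 0 counts in every library. Kif1a had 7 counts in Foxp3-DTR C and 0 in the other libraries, Kif19a at most 10 counts and Kif6 at most 10.

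Exons of Kif2a, Kif3c and Kif7 overlap a gene on the opposite strand, over 765, 3205 and 928 bases, so their counts carry the same limit as those of Kif20a and Kif4. The log2 fold change was 0.22 for Dimt1, beside Kif2a, and 0.08 for 1110002L01Rik, beside Kif3c, and neither passed edgeR's test.

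**Figure D5:**
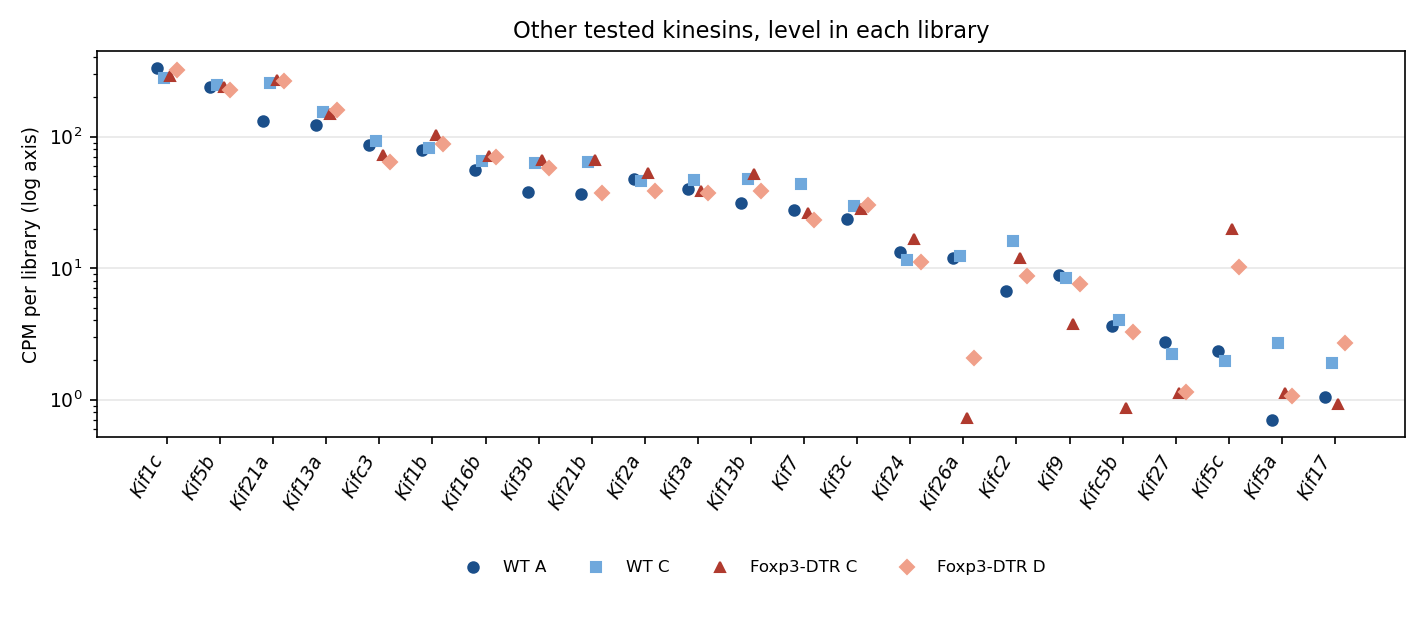
CPM of the 23 other tested kinesins (log axis), 1 symbol per library, genes ordered by their WT mean. Blue and red symbols mix for most genes; the groups stand widely apart for Kif26a (11.96 and 12.4 against 0.729 and 2.05 CPM) and Kif5c (2.32 and 1.97 against 19.9 and 10.3 CPM).

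Of the 23 other tested kinesins, 0 were called in either direction in edgeR's test. At an unadjusted p under 0.05, edgeR had Kif26a lower and Kif5c higher, against 7.89% of all genes lower and 6.76% higher. DESeq2 called the same 2 genes, and limma-voom 0. The median log2 fold change was 0.02, and 11 of 23 were negative. Groups did not overlap for 7 with Foxp3-DTR lower and for 4 with Foxp3-DTR higher, beside 23.7% and 22.0% of all genes tested. A log2 fold change of -1 or below was found in 2 of 23 (Kif26a and Kif27) and of 1 or above in 1 (Kif5c), against 7.47% and 5.59% of all genes.

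Levels per length (CPM per kb of exon in the GENCODE M21 basic set) show how the family's order differed between groups. In WT the highest members were Kif1c at 41.7, Kif5b at 40.1 and Kif21a at 29.9 CPM per kb. The highest mitotic members followed at ranks 5, 7, 8 and 9 of 42: Kif22 at 20.8, Kif11 at 19.1, Kif23 at 18.4 and Kif20a at 16.7 CPM per kb. The 2 WT libraries of these 4 motors overlapped, from 13.1 to 28.5 CPM per kb, so their order among themselves is not resolved. In Foxp3-DTR the same 4 motors stood at ranks 14, 18, 16 and 20, between 2.72 and 5.32 CPM per kb. Kif18a stood at rank 11 in both groups, with 9.60 CPM per kb in WT and 6.19 in Foxp3-DTR. These levels depend on the gene model, since the full annotation holds longer transcripts of Kif18a (6509 against 3369 bases of exon) and Kif22 (3586 against 2115). Divided by the longest transcript, an alternative chosen after seeing the data, Kif18a came to 4.97 and 3.20 CPM per kb (ranks 23 and 18) and Kif22 to 12.3 and 3.14 (ranks 10 and 19). The order of the mitotic members per length is therefore not secure.

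The proteins that work with the mitotic motors were examined as a list. Of 18 partners, 1 was called lower by edgeR (0.426% of all genes) and 0 higher (0.82%), all 18 had negative fold changes, and the median was -2.26. The partner called lower was Aurka, a kinase of the spindle poles. It stood at 32.4 and 20.2 CPM in WT and at 5.37 and 6.02 CPM in Foxp3-DTR (log2 fold change -2.21 ± 0.35, edgeR adjusted p = 0.0468). The most negative estimate of the list was that of Aurkb, at -2.75, which did not pass (edgeR adjusted p = 0.169). Hmmr, a spindle pole protein, stood at 39.3, 23.2, 4.24 and 7.65 CPM (-2.39 ± 0.42, edgeR adjusted p = 0.055). Cenpe, the kinesin-7 of kinetochores, whose symbol keeps it out of the rule, stood at 59.5, 39.1, 5.90 and 12.96 CPM (-2.39 ± 0.44, edgeR adjusted p = 0.0623). Mapre1, a microtubule end-binding protein of all cells, was the exception in size, at -0.09 ± 0.17; it was chosen after its values were seen. DESeq2 called 16 of the 18 lower (3.79% of all genes). Without Foxp3-DTR D edgeR called 16 (1.64%), without WT C 4 (1.2%), and 0 passed on leaving out WT A (0.316%) or Foxp3-DTR C (0.105%); limma-voom also called 0 (0.178%).

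Of 7 proliferation markers 0 were called by edgeR (0.426% of all genes were called lower), 7 were lower at an unadjusted p under 0.05 (7.89%), and the median was -2.13. DESeq2 called 6 lower (3.79%), and edgeR 5 without Foxp3-DTR D (1.64%) and 2 without WT C (1.2%). Mki67, the antigen of cycling cells, stood at 519, 323, 62.8 and 123 CPM (edgeR adjusted p = 0.0741). Mcm2, a replication licensing factor, had a log2 fold change of -1.86 ± 0.31 and Pcna, the replication clamp, -1.12 ± 0.22 (edgeR adjusted p = 0.0543 and 0.0687). Set against the summed counts of these markers, the mitotic kinesins came to 38.1% and 39.5% in WT and to 36.4% and 38.5% in Foxp3-DTR. Set against the 18 partners they came to 40.1%, 38.8%, 23.6% and 30.6%. Mapre1 made up 15.2%, 22.4%, 59.8% and 40.8% of the partner counts, and without it the share lay between 47.2% (WT A) and 58.8% (Foxp3-DTR C).

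Transport partners and the opposing motor resembled the other kinesins in median. Of 14 kinesin light chains and cargo adaptors, 0 were called by edgeR or DESeq2 and 0 had an unadjusted edgeR p under 0.05; the median log2 fold change was 0.08, within a range of -0.46 to 0.38. The genes with the smallest p were Mapk8ip1, a scaffold that binds light chains (-0.46 ± 0.22), and Trak2, the mitochondrial adaptor (0.32 ± 0.22), with edgeR adjusted p of 0.425 and 0.594. Of 22 tested genes of cytoplasmic dynein, dynactin and their regulators, 0 were called by edgeR or DESeq2, with a median of -0.12. Nde1, a dynein regulator that also acts in mitosis, stood at 95.6, 66.5, 48.2 and 49.3 CPM (-0.73 ± 0.23, edgeR adjusted p = 0.192). Hook1, which links endosomes to dynein, stood at 40.3, 58.5, 94.0 and 64.7 CPM (0.68 ± 0.27, edgeR adjusted p = 0.319). These were the only members of that list with an unadjusted edgeR p under 0.05.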

How the data were processed

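RNA sequencing was compared between 2 Foxp3-DTR and 2 WT libraries. The authors deposited raw counts by gene symbol for each library. TopHat2 2.0.12, HTSeq 0.6.1 and build mm10 are named in the submitters' processing notes; for annotation and strand setting the sources used here give nothing. Per the labels' protocols, a stranded poly(A) kit was used. The counter's 5 special rows, 62.0% to 70.1% of a library's counts and mostly alignments that were not unique, were left out; this lowers counts of genes with near copies.

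Counts were tested with edgeR 4.0.16 in R 4.3.3 (TMM factors, filterByExpr, robust glmQLFit, glmQLFTest, group only), with Benjamini-Hochberg adjustment over 12920 genes and a threshold of 0.05. Intervals at 95% and SEs come from the quasi-likelihood F statistic. Whether each library is a separate animal is not stated, so p-values measure only how these libraries vary, which may be technical. The alternatives were DESeq2 1.42.0, limma-voom (limma 3.58.1), upper-quartile factors, no filter and leaving out each library. The procedure was also run on simulated data with known changes. These drew genes independently and with the same spread for all, so they do not cover replicates that differ in step. Positions, exon lengths (basic set) and sequence copies are from GENCODE M21 (GRCm38), promoters from RefSeq. Members and lists were chosen with earlier results of these data known. The rule for named genes took the 12 mitotic kinesins, other kinesins past the threshold, the 6 highest per length and both extremes, the remaining members by name, the 2 smallest p of each pathway list, and Cenpe, Mki67 and Foxp3.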

Additional observations from a re-analysis of the deposited data

How the results depend on the processing

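No paired analysis was possible because the labels name no pairs. The groups share only the replicate letter C, under the different title codes DEP2 and DEP3. Over all genes, against 55 lower and 106 higher, the counts were 514 and 489 with DESeq2, 23 and 70 with limma-voom, and 252 and 277 with no filter; leaving out 1 library gave 14 to 220 lower and 66 to 203 higher. Mitotic kinesins called lower numbered 11 with DESeq2 and 6 with no filter (1.61% of all genes), and 1 to 10 when 1 library was left out, where their median ranged from -2.83 to -1.57. Other kinesins called lower and higher numbered 1 and 1 with DESeq2 and with no filter, and 0 to 1 each without 1 library. Partners called lower numbered 16 with DESeq2, 0 with limma-voom, 7 with no filter and 0 to 16 without 1 library; proliferation markers 6, 0, 2 and 0 to 5. Kif11 passed in 8 of 8 alternatives (adjusted p 1.83e-09 to 0.0411), and all 96 alternative values of the 12 mitotic kinesins kept their sign. Of 184 values of other kinesins, 18 changed sign, none past the threshold. With upper-quartile factors they were Kif1c (-0.03) and Kif21b (-0.02). Leaving out 1 library gave the others, with ranges of -0.10 to 0.16 for Kif1c, -0.66 to 0.86 for Kif17, -0.61 to 0.62 for Kifc2, -0.01 to 0.72 for Kif3b, -0.15 to 0.44 for Kif24, -0.27 to 0.18 for Kif2a, -0.07 to 0.55 for Kif13b, -0.44 to 0.51 for Kif21b, -1.29 to 0.63 for Kif5a and -0.02 to 0.32 for Kif3c. There the lone library of a group is assumed to vary like the other group. Leaving Kif2a, Kif2b, Kif24, Kifc5b and Kif4-ps out of the other kinesins gave a median of 0.03. The cause of these differences was not tested, beyond fewer samples where a library was left out. Dividing by the longest transcript, chosen after seeing the data, moved the CPM per kb of Kif18a from 9.60 to 4.97 in WT and from 6.19 to 3.20 in Foxp3-DTR.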
